A study of Rattus norvegicus with 15 samples.

Results

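Muscle microRNAs (miRNAs) in rat sciatic nerve are described here on 15 miRNA arrays. They are rno-miR-1, rno-miR-1*, rno-miR-133a, rno-miR-133b, rno-miR-206 and rno-miR-499, taken by name, and make up 6 of the 350 rat miRNAs on the array. All 6 were among the 231 miRNAs tested, for which some group had a detection on each of its 3 arrays. The arrays fall into 5 groups of 3: uninjured nerve (day 0) and nerve 1, 4, 7 and 14 days after injury, all from adult male rats, with no strain, genotype or drug given in the labels. The labels describe the injury both as a resection with proximal tissue and as a crush with the damaged section taken, so the word injury covers both. They do not say whether the arrays of a group came from separate animals, so the spread behind the p-values may be technical only.

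miRNAs are short RNAs that guide the Argonaute proteins to messenger RNAs, mainly through bases 2 to 8, the seed. miR-1, miR-133a, miR-133b, miR-206 and miR-499 are known as striated muscle miRNAs: miR-1 and miR-133a act in heart and skeletal muscle, miR-206 and miR-133b in skeletal muscle, and miR-499 in heart and slow muscle fibres. A peripheral nerve is made of axons, Schwann cells, fibroblasts, vessels and immune cells, and lies between muscles.

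The mature sequences below show which members are near-identical, since such miRNAs can share signal on their probes. All 6 names matched RefSeq (build GRCr8), with rno-miR-1* taken as the 5′ arm of the miR-1 hairpin and rno-miR-499 as the 5′ arm of the miR-499 hairpin, and capitals mark the seed. The 6 members have 4 distinct seeds.
rno-miR-1: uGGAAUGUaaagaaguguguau
rno-miR-206: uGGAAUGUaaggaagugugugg
rno-miR-133a: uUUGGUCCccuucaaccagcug
rno-miR-133b: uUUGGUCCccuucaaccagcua
rno-miR-499: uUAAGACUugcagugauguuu
rno-miR-1*: gCACAUACuucuuuauguaccc

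miR-1 and miR-206 share their seed and differ at 3 of 22 positions, counted from 1 at the 5′ end of miR-1, the first base given being that of miR-1: A11G, A21G and U22G. miR-133a and miR-133b share theirs and differ only at the last base (G22A, the first base given being that of miR-133a). A rat relative outside the set, miR-1b, differs from miR-1 by a single base (G17A). In GRCr8 the miR-1 arm lies at chr18:2160339-2160360 and miR-133a at chr18:2157886-2157907, both on the minus strand and inside the protein-coding gene Mib1. miR-206 at chr9:30590747-30590768 and miR-133b at chr9:30594629-30594650 lie on the plus strand inside the same long non-coding RNA gene, LOC120094648. miR-499 lies at chr3:164570616-164570636 inside Myh7b, which encodes a slow myosin heavy chain. The 2 arms of the miR-1 hairpin, in capitals, stand in the order miR-1* and miR-1 in the 87-base hairpin of Mir1 (chr18:2160327-2160413, minus strand).
Mir1 hairpin: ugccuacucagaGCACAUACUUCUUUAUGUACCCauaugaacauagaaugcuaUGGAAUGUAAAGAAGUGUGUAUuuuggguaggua

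Detection ran from 200 to 239 miRNAs per array except on day 14 replicate 3, with 172, and no spot was saturated. Outlier spots made up 5.67% on that array and 2.66% to 4.17% on the others. Day 0, day 1 and day 4 each lay on a slide of their own, so slide and time cannot be told apart for them. Day 0 and day 1 were also each alone on their scan day, so comparisons with either cannot tell scan day from time. Day 4 was scanned on the same day as day 7 and day 14 replicates 1 and 2. Day 7 shared its slide with day 14 replicates 1 and 2, and day 14 replicate 3 was alone on slide 5 and alone on its scan day. Signal below is the background-subtracted intensity, and a log2 level is the log2 of that intensity divided by the 75th percentile of the array. Levels of different miRNAs are not compared, since probes differ in binding. Of 5 myelinating glia miRNAs on the array, 3 were detected on all 15 arrays, including miR-338 and miR-138, and the others on 11 and 2 arrays. Detected on all 15 were also 5 of 5 smooth muscle and fibroblast, 5 of 5 leukocyte and 2 of 2 endothelium miRNAs. Detection alone thus cannot tell nerve from other tissue.

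miR-1, miR-133a, miR-133b, miR-206 and miR-499 were detected in injured and uninjured nerve, and miR-1* on no uninjured array. With all 15 arrays, 4 of the 6 varied more between arrays of a group than any other miRNA tested. miR-1, which promotes differentiation of myoblasts in mouse, was detected on 15 of 15 arrays, with intensities from 51.9 to 5563, a 110.4-fold range of scaled levels. Its log2 levels were 3.12, -1.52 and -0.76 on the 3 day 0 arrays, 0.51, -0.51 and 0.85 on day 1, and -2.18, -2.85 and -2.95 on day 4. They were -3.66, -1.65 and -1.79 on day 7 and 0.03, -1.62 and 0.02 on day 14. Day 0 replicate 1 was above every other array, and the remaining day 0 arrays lay below all 3 day 1 arrays. Every day 4 and day 7 array lay below every day 0 and day 1 array. The share of all tested miRNAs without overlap between groups was computed only for day 4 against day 1 and for day 14 against day 7.

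miR-206, which has the miR-1 seed and is induced in denervated and regenerating mouse muscle, was detected on 14 of 15 arrays. Its log2 levels were -0.64, -5.65 and -4.09 on day 0, where replicate 2 was not detected, and -2.02, -3.65 and -2.52 on day 1. They were -4.92, -3.79 and -2.93 on day 4, -4.92, -2.95 and -3.16 on day 7, and -2.82, -3.15 and -3.25 on day 14. Day 0 held both its highest and its lowest array, and all groups overlapped with day 0.

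miR-133a, which favours proliferation of mouse myoblasts, had log2 levels of -1.81, -5.55 and -5.43 on day 0, -3.61, -4.36 and -3.54 on day 1, and -5.79, -6.19 and -5.68 on day 4. Those of day 7 were -6.20, -5.50 and -5.60, and those of day 14 were -4.52, -5.30 and -5.09. Its signal was dim, with an intensity of 7.52 to 48.0 on every array but day 0 replicate 1, where it was 182. miR-133b, its near-identical relative, had log2 levels of 2.72, -1.81 and -1.06 on day 0, 0.77, -0.37 and 0.90 on day 1, and -1.99, -2.38 and -2.10 on day 4. It was at -3.17, -1.50 and -1.62 on day 7 and at -0.01, -1.37 and -0.40 on day 14. As for miR-1, day 0 replicate 1 was the highest array, day 7 replicate 1 the lowest, and all 3 day 1 arrays lay above the remaining day 0 arrays.

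miR-499, from an intron of a myosin gene, had a narrower range and a different course. Its log2 levels were -3.80, -3.95 and -3.57 on day 0, -4.45, -4.08 and -4.54 on day 1, and -4.78, -4.79 and -4.83 on day 4. They were -4.90, -5.31 and -5.23 on day 7 and -5.21, -4.96 and -5.69 on day 14, where replicate 3 was not detected. Every array of every injured group lay below all 3 day 0 arrays, and day 0 replicate 1 did not stand out. How many of all tested miRNAs were separated from day 0 in this way was not computed. Its intensities were 16.3 to 51.5, a dim signal on all 15 arrays.

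miR-1*, the partner strand of miR-1, was detected on 6 of 15 arrays: all 3 of day 4, replicates 1 and 3 of day 7 and replicate 1 of day 14. Its intensities were 4.49 to 10.6 and its log2 levels -7.00 to -5.82. On day 0 replicate 1, where miR-1 was highest, miR-1* was not detected and had an intensity of 7.76. Its probes did not move together: the 2 others with positive signal on every array had r of -0.402 and 0.386 with the one brightest on day 0 replicate 1, so the direction of its small changes rests on signal near background.

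**Figure D1:**
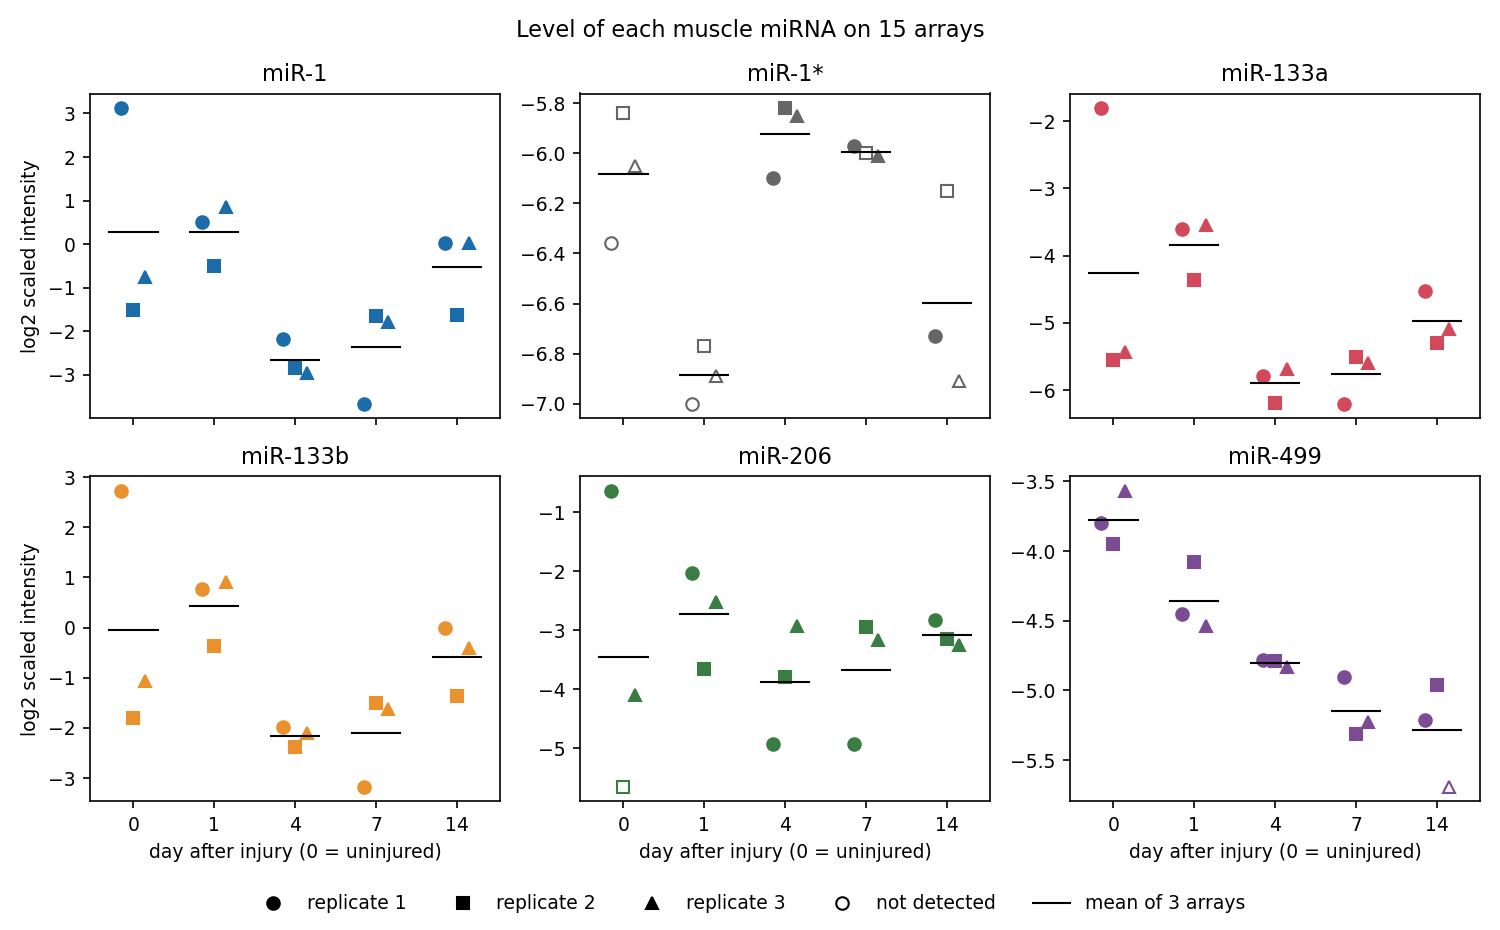
Log2 scaled intensity of the 6 muscle miRNAs on each array by day after injury, with open symbols where the miRNA was not detected and a line at the mean of the 3 arrays. Day 0 replicate 1 is the highest array for miR-1 (3.12), miR-133a (-1.81), miR-133b (2.72) and miR-206 (-0.64) but not for miR-499 (-3.80), whose injured arrays all lie below day 0.

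With all arrays, 4 members had the highest spread between arrays of a group. The residual SD of the 5-group model was 1.38 for miR-206, 1.35 for miR-1, 1.25 for miR-133b and 1.01 for miR-133a, which were ranks 1 to 4 of 231. The next miRNA, the erythroid miR-144, had 0.815, and the median over all tested miRNAs was 0.160. miR-499 and miR-1* stood at ranks 47 and 49. The share of variance that lay between the 5 groups was 12.0% for miR-206, 57.4% for miR-1, 51.9% for miR-133b and 48.8% for miR-133a, against a median of 82.9% over all tested miRNAs. This was a description without a test. The standing of miR-133a rested on day 0 replicate 1: without that array its residual SD was 0.362, rank 22 of 231. Without it miR-206 (0.885), miR-1 (0.815) and miR-133b (0.671) were at ranks 1, 2 and 5. In the deposited table miR-206, miR-1, miR-133b and miR-133a were at ranks 1, 5, 10 and 12 of 230. The within-group SD was 2.49 for miR-1 on day 0 and 0.42 on day 4 (n = 3 each), and for miR-206 it was 2.57 on day 0 and 0.23 on day 14 (n = 3 each).

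**Figure D2:**
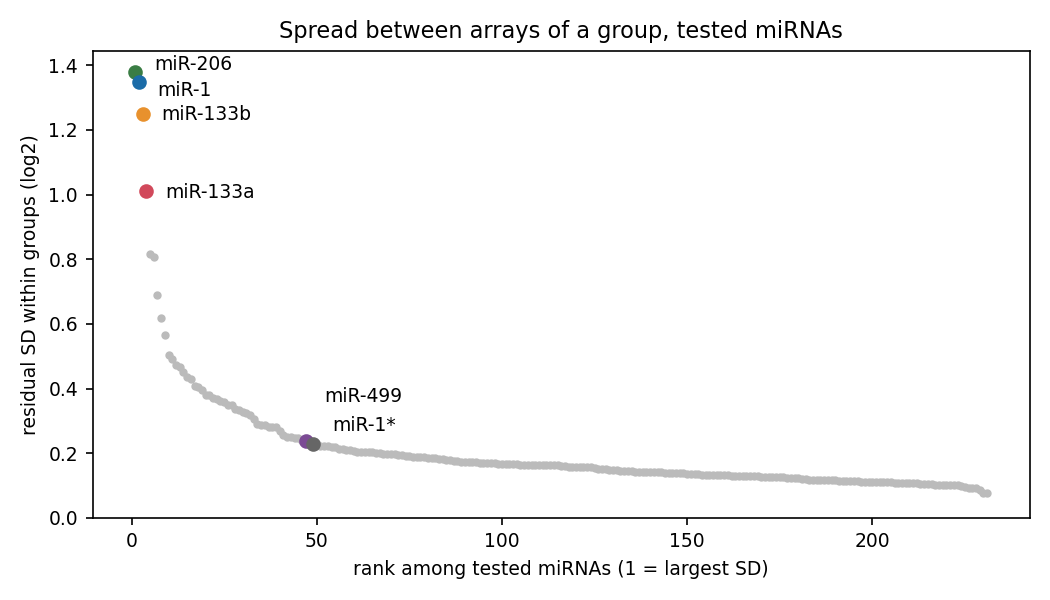
Residual SD of each of the 231 tested miRNAs within groups, on the log2 scale, by rank, with the 6 muscle miRNAs marked. miR-206, miR-1, miR-133b and miR-133a hold ranks 1 to 4, and miR-499 and miR-1* lie among the other miRNAs.

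Probes of the 5 members other than miR-1* gave like values. The 2 probes of miR-1, each printed on up to 10 spots, had r of 0.999 over the 15 arrays on the log2 scale, those of miR-133b 0.994 and those of miR-206 0.996. The dimmer miR-133a and miR-499 had 0.853 and 0.846. The median coefficient of variation between spots of a member's probe was 6.86%. On day 0 replicate 1 the 2 probes of miR-1 were 25.6 and 26.3 times their median over the other 14 arrays. The 6 members together gave 5.81% of the array's summed signal there and 0.123% to 1.66% elsewhere.

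miRNAs of other tissues were read on the same arrays. The remaining striated muscle list held 7 miRNAs, of which miR-378 and miR-208 were on the array. miR-208, encoded in a heart myosin gene, was detected on 0 of 15 arrays. miR-378, abundant in muscle and other tissues with many mitochondria, had log2 levels of -1.24, -2.04 and -2.17 on day 0 replicates 1, 2 and 3. The summed scaled level of myelinating glia miRNAs on day 0 was 16.9 on replicate 1, the lowest of the group, with 20.7 and 25.9 on replicates 2 and 3. That of the erythrocyte list was 3.98, the highest, with 3.26 and 0.734. The smooth muscle and fibroblast list (9.97, 11.4 and 10.6), the leukocyte list (1.62, 1.92 and 1.80) and the endothelium list (3.16, 3.45 and 3.36) were lowest on replicate 1. The 75th percentile that divides these sums was 639 on day 0 replicate 1 and 605 and 612 on replicates 2 and 3. The miRNAs that set it include 3 members. How far this lowered the sums on replicate 1 was not tested. The epithelium list (0.102, 0.0991 and 0.108) and the liver and pancreas list (0.0798, 0.0884 and 0.0807) stayed low, and 4 of 6 and 2 of 4 of their miRNAs were detected on no array. Fewer cells of a type and less RNA per cell cannot be told apart in these bulk samples, and the part of striated muscle tissue in the results was not tested.

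Over the 15 arrays, miR-1, miR-133a and miR-133b rose and fell together. Among the 10 pairs of the 5 members detected in every group, 6 passed a permutation test of Pearson's r (100000 resamples, two-sided, Benjamini-Hochberg over the 10). miR-1 and miR-133b had r = 0.985 and rho = 0.971, miR-133a and miR-133b had r = 0.976 and rho = 0.986, and miR-1 and miR-133a had r = 0.943 and rho = 0.961. Each of these values had a permutation p of 1.00e-05, the smallest that the resamples can give, and an adjusted p of 3.33e-05. Without the 2 arrays farthest from the median of the first member, day 0 replicate 1 and day 1 replicate 3, r was 0.968, 0.951 and 0.875 in that order. After subtracting group means, r was 0.986, 0.965 and 0.925, with adjusted permutation p of 0.00365, 0.00360 and 0.0142. The within-group SD on day 0 was 2.49 for miR-1, 2.13 for miR-133a and 2.43 for miR-133b. On the other days it was at most 1.12, 0.45 and 0.93. These r after subtraction thus rest largely on day 0, and they were not computed without day 0 replicate 1. The 22-base miR-133a and miR-133b can share signal through their probes. miR-1 and miR-133b have different seeds, but probe sequences were not examined and shared signal was not tested for any pair.

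miR-206 followed the other 3 less closely. With miR-133b it had r = 0.798 (permutation p = 0.000270, adjusted p = 0.000675) and rho = 0.704 (permutation p = 0.00441, adjusted p = 0.00882). With miR-133a it had r = 0.788 (permutation p = 0.000370, adjusted p = 0.000740) and rho = 0.704 (permutation p = 0.00427, adjusted p = 0.00882). With miR-1, whose seed it shares, it had r = 0.718 (permutation p = 0.00293, adjusted p = 0.00488) and rho = 0.600 (permutation p = 0.0205, adjusted p = 0.0342). These 3 relations rest on the 2 farthest arrays: without them r was 0.627, 0.593 and 0.471 in the same order, with adjusted permutation p of 0.0548, 0.0639 and 0.174. After subtracting group means, over all 15 arrays, r was 0.898, 0.878 and 0.831, with adjusted permutation p of 0.0214, 0.0214 and 0.0419. The within-group SD of miR-206 was 2.57 on day 0 and at most 1.08 on the other days. These r after subtraction also rest largely on day 0, and they were not computed without day 0 replicate 1. miR-499 passed with no member, its r ranging from -0.0137 with miR-206 to 0.394 with miR-133a (adjusted permutation p of 0.962 and 0.209), and its rho from -0.0750 to 0.332 (adjusted permutation p of 0.792 and 0.322).

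**Figure D3:**
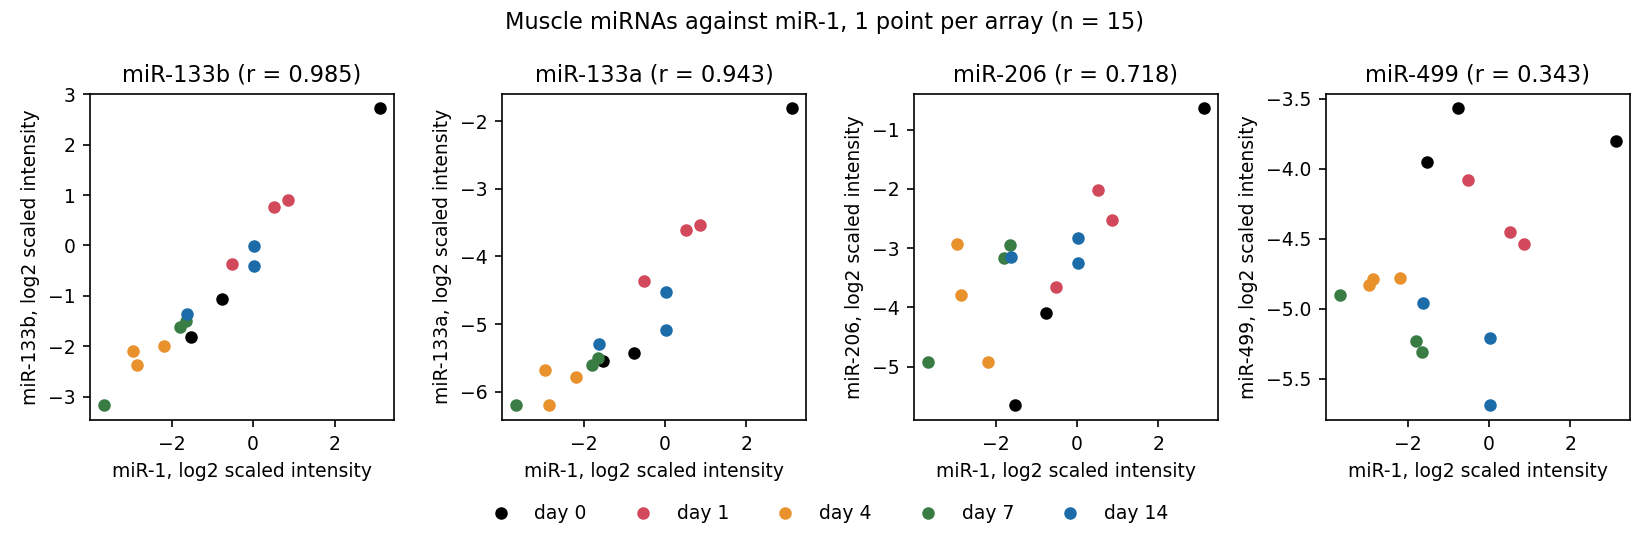
Log2 scaled intensity of miR-133b, miR-133a, miR-206 and miR-499 against that of miR-1, with 1 point per array coloured by day (n = 15). Points of miR-133b and miR-133a lie along a line through all 5 groups (r = 0.985 and 0.943), those of miR-206 scatter (0.718), and those of miR-499 do not follow miR-1 (0.343).

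Among the 161 other miRNAs detected on all 15 arrays, miR-378 was the most like miR-133a by Pearson's r. Its r with miR-133a was 0.786, followed by miR-30d (0.545), miR-451 (0.480), miR-150 (0.463) and miR-145 (0.460), and the median over the 161 was 0.0225. By rank the order was another: rho was 0.346 for miR-378, the lowest of these 5, with 0.621 for miR-30d, 0.364 for miR-451, 0.443 for miR-150 and 0.379 for miR-145. After subtracting group means, miR-378 had r = 0.922, and the next were miR-451 (0.408), miR-128 (0.345), miR-193 (0.319) and miR-365 (0.260), with a median of -0.586 over the 161. All miRNAs of an array share its scaling factor, so these values are a description. Without day 0 replicate 1, r between the levels of miR-378 and miR-133a over 14 arrays was 0.556. The within-group SD of miR-378 was 0.50 on day 0 and 0.12, 0.12, 0.02 and 0.06 on days 1, 4, 7 and 14. The r of 0.922 thus rests largely on day 0, and it was not computed without day 0 replicate 1.

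The comparisons with day 0 ask how the muscle miRNAs in the nerve changed after injury, and all 4 share the same 3 day 0 arrays. On day 1, miR-499 was the only member called of 6, and it fell; 43.7% of the 231 tested miRNAs were called lower in that comparison. miR-499 averaged -4.36 ± 0.24 on day 1 and -3.77 ± 0.19 on day 0 (SD, n = 3 each), a log2 change of -0.58 ± 0.18 (SE, limma adjusted p = 0.0126). The call was lost with the 75th percentile over all miRNAs (-0.41, adjusted p = 0.0635) or over those detected on 14 arrays (-0.37, 0.202), with the software's total signal (-0.58, 0.348), in the deposited table (-0.68, 0.467) and with normexp background correction (-0.12, 0.383). It was also lost without day 0 replicate 3, day 1 replicate 3 or day 14 replicate 3 (-0.48, -0.49 and -0.37). The changes of miR-133a, miR-133b and miR-206 were 0.43, 0.49 and 0.73 and did not pass, with SEs of 0.72, 0.89 and 0.98. miR-1* had no detection in either group.

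On day 4, miR-1 and miR-499 were called lower, 2 of 6 members against 45.5% of all tested miRNAs. miR-1 averaged -2.66 ± 0.42 on day 4 and 0.28 ± 2.49 on day 0 (SD, n = 3 each), a change of -2.94 ± 0.96 (limma adjusted p = 0.0150). miR-499 fell by 1.03 on the log2 scale (SE 0.18, limma adjusted p = 0.000219). miR-133a (-1.62 ± 0.72) and miR-133b (-2.10 ± 0.89) did not pass, with limma adjusted p of 0.0611 and 0.0504. Both were lower on all 3 day 4 arrays than on all 3 day 0 arrays. The share of all tested miRNAs with that separation was not computed. The value for miR-206 was -0.42 ± 0.98, and the test was not passed.

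On day 7, miR-1 (-2.65 ± 0.96, limma adjusted p = 0.0261) and miR-499 (-1.37 ± 0.18, limma adjusted p = 2.21e-05) were called lower, again 2 of 6 members against 45.5% of all tested miRNAs. The values of miR-133a, miR-133b and miR-206, -1.50, -2.04 and -0.22, missed the threshold. On day 14, miR-499 was lower by 2.85-fold, averaging -5.29 ± 0.37 on day 14 and -3.77 ± 0.19 on day 0 (SD, n = 3 each; change -1.51 ± 0.18, limma adjusted p = 9.89e-06). The other call was that of miR-1* (-0.52 ± 0.17, limma adjusted p = 0.0182), detected on 1 day 14 array and no day 0 array, so that no fold is given. These made 2 of 6 members with a limma call on day 14, against 50.6% of all tested miRNAs called lower. Since no day 0 array detected miR-1*, its call shows no fall. miR-499 was the only member detected on day 0 that was called lower. miR-1, miR-133a, miR-133b and miR-206 did not pass on day 14, with changes of -0.81, -0.71, -0.54 and 0.39.

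The median change of all tested miRNAs against day 0 was -0.26, -0.26, -0.32 and -0.37 on days 1, 4, 7 and 14, so that the falls of miR-499 beyond that shift were smaller than the changes given. With the 75th percentile over all miRNAs, where the medians were -0.08, 0.05, 0.04 and -0.01, miR-499 changed by -0.41, -0.71, -1.01 and -1.15 and passed on days 4, 7 and 14. Its falls on days 7 and 14 passed in every alternative in which it was tested, and that on day 4 in all but the software's total signal (-1.16, adjusted p = 0.0580) and the deposited table (-1.51, adjusted p = 0.0804). The size was less stable: with normexp background correction the changes were -0.30, -0.52 and -0.64 on days 4, 7 and 14, in place of -1.03, -1.37 and -1.51.

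Day 0 replicate 1 decided most of the other results against day 0. Without it, the fall of miR-1 was 1.52 on day 4 (adjusted p = 0.0515) and 1.23 on day 7 (adjusted p = 0.110), and neither passed. Without it, 3 of 6 members were called higher on day 1, against 16.9% of all tested miRNAs in that fit: miR-133a by 1.65 ± 0.29 (limma adjusted p = 0.000388), miR-133b by 1.87 ± 0.53 (0.00810) and miR-206 by 2.14 ± 0.69 (0.0161). miR-1 changed by 1.42 ± 0.64 on day 1 in that fit and did not pass (0.0661). On day 14, miR-206 was called higher without that array, 1 of 6 members against 15.2%, by 1.80 ± 0.69 (limma adjusted p = 0.0358). Without that array miR-499 changed by -0.59, -1.04, -1.38 and -1.52 on days 1, 4, 7 and 14, close to the values with all arrays, and was called each time. The fall of miR-1 on day 7 was also lost without day 7 replicate 1 (-2.00, adjusted p = 0.116), with quantile normalisation (-2.29, 0.0699), when all miRNAs set the 75th percentile (-2.29, 0.0689), in the deposited table (-2.26, 0.0890), without a filter (-2.65, 0.0729) and with array weights (-1.26, 0.101). That on day 4 was also lost in the deposited table (-2.52, adjusted p = 0.0574).

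**Figure D4:**
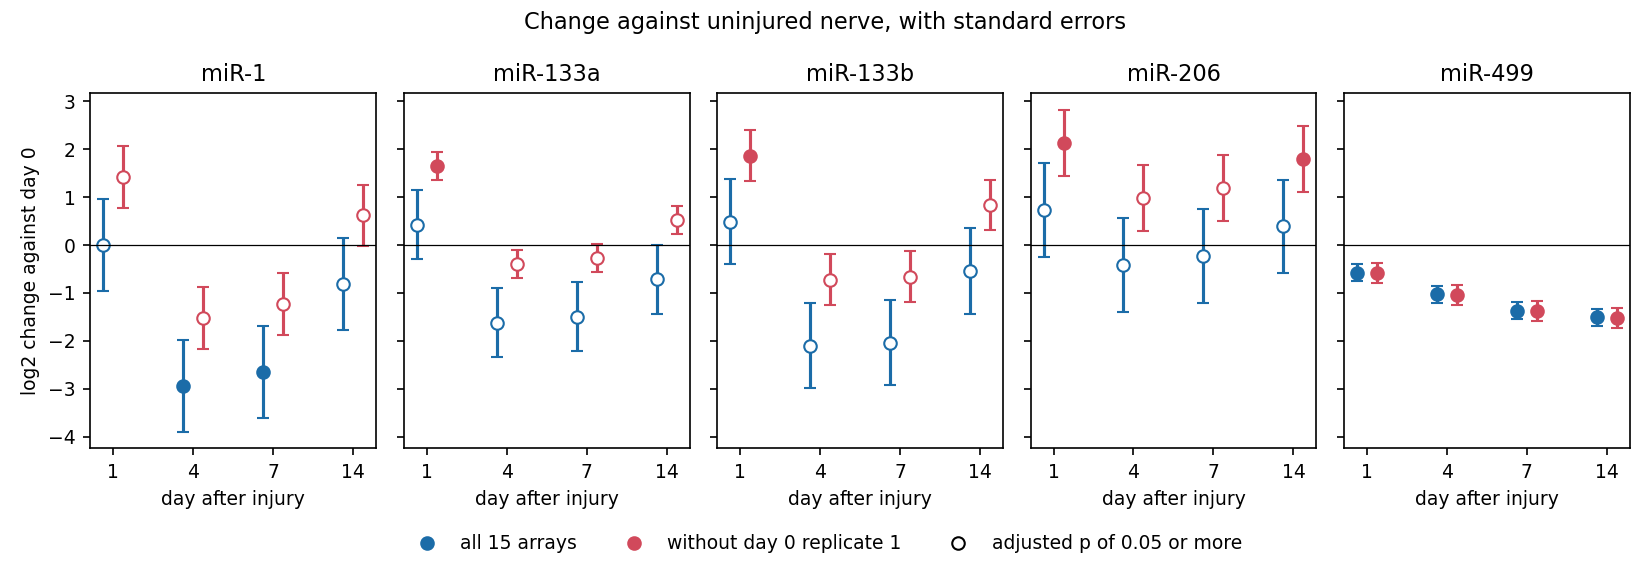
Log2 change against day 0 of 5 muscle miRNAs on days 1, 4, 7 and 14, with standard errors, for all 15 arrays and without day 0 replicate 1, and open symbols where the adjusted p was 0.05 or more. Leaving out that array moves miR-1, miR-133a, miR-133b and miR-206 upward, so that miR-206 is at 1.80 on day 14 in place of 0.39, and leaves miR-499 where it was.

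Between day 1 and day 4, which needs no day 0 array, miR-1, miR-133a and miR-133b fell together. miR-1 averaged -2.66 ± 0.42 on day 4 and 0.28 ± 0.71 on day 1 (SD, n = 3 each), a log2 change of -2.94 ± 0.96, a level 7.68-fold lower (limma adjusted p = 0.0214). miR-133a was 4.14-fold lower (-2.05 ± 0.72, limma adjusted p = 0.0300) and miR-133b 6.02-fold lower (-2.59 ± 0.89, limma adjusted p = 0.0273). These were 3 of 6 members called lower, against 23.8% of all tested miRNAs. With miR-499 (-0.44 ± 0.18, limma adjusted p = 0.0530), 4 of 6 members had all 3 day 4 arrays below all 3 day 1 arrays, against 32.0% of all tested miRNAs. miR-206 overlapped between the groups, with a change of -1.15 ± 0.98.

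Single arrays and settings decided these calls, though not the direction of miR-1, miR-133a and miR-133b in them. The fall of miR-1 was lost without day 1 replicate 1 (-2.83, adjusted p = 0.0558), day 1 replicate 3 (-2.66, 0.0689), day 4 replicate 2 (-2.85, 0.0567) or day 4 replicate 3 (-2.79, 0.0649). The calls of miR-133a (-1.90 to -2.15) and miR-133b (-2.36 to -2.62) were lost without the same arrays, with adjusted p of 0.0606 to 0.0875 and 0.0635 to 0.0818, and that of miR-133a also without day 4 replicate 1 (0.0548). With all arrays, the call of the dim miR-133a was lost with normexp background correction (-0.50, adjusted p = 0.122), the software's total signal (-2.03, 0.0560), the 75th percentile over all miRNAs (-1.91, 0.0508) and robust eBayes (0.0513). Without a filter the calls of miR-1 (0.0626), miR-133a (0.0791) and miR-133b (0.0732) were lost. Without day 0 replicate 1, which enters this comparison only through the shared estimate of the spread, the limma adjusted p was 0.00101 for miR-1, 4.74e-05 for miR-133a and 0.000609 for miR-133b. miR-1* entered the test only through day 4, the group in which all 3 arrays detected it, so its test here gives no separate support. In the main processing its day 4 signal was at least 1.80-fold that of day 1, where no array detected it (limma adjusted p = 0.000640). The day 4 intensities, 8.32, 9.71 and 9.54, were like those of the undetected day 0 arrays, 7.76, 10.6 and 9.26. miR-1* was the 1 member called higher, against 27.7% of all tested miRNAs. The call was lost with the software's total signal (0.51, adjusted p = 0.224), with normexp background correction (0.02, 0.900) and in the deposited table (1.14, 0.0948).

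From day 4 to day 7 no member was called by limma, against 6.06% of all tested miRNAs called in either direction. The unadjusted p of the 6 members ran from 0.0743 for miR-499, which was lower on all 3 day 7 arrays (-0.35 ± 0.18), to 0.946 for miR-133b. From day 7 to day 14, miR-1, miR-133a and miR-133b were higher on every day 14 array than on every day 7 array, 3 of 6 members against 15.6% of all tested miRNAs. Their changes were 1.84 ± 0.96, 0.79 ± 0.72 and 1.50 ± 0.89 and did not pass (limma adjusted p of 0.200, 0.490 and 0.268). Without day 0 replicate 1 the same 3 members were called higher, against 8.23% of all tested miRNAs in that fit, with limma adjusted p of 0.0411, 0.0494 and 0.0427. Within the slide that holds day 7 and day 14 arrays, the changes were 1.57, 0.85 and 1.40 (adjusted p of 0.242, 0.126 and 0.206). miR-1* was the 1 member called lower on day 14 against day 7 (-0.60 ± 0.17, limma adjusted p = 0.0356), against 9.09% of all tested miRNAs, with a detection on 1 day 14 array and 2 day 7 arrays; the change within the slide was -0.45 (adjusted p = 0.170).

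The F test over the 5 groups was passed by 4 of 6 members, against 86.1% of all tested miRNAs. miR-499 had F = 23.6 (limma adjusted p = 2.81e-05), miR-1* F = 11.7 (0.000536), miR-1 F = 4.46 (0.0201) and miR-133b F = 3.56 (0.0410). miR-1* was tested only because all 3 day 4 arrays detected it, with no detection on day 0 or day 1. Its F rests on intensities of 4.49 to 10.6, near background. miR-133a had F = 3.14 and did not pass (limma adjusted p = 0.0583). miR-206, with F = 0.450 (limma adjusted p = 0.774), had the second lowest share of variance between groups of all 231 miRNAs.

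The difference between a member and miR-1 on the same array cancels any scaling factor of that array and asks whether the muscle miRNAs kept their proportions after injury. This comparison was added after the values were seen. The ratio itself depends on the probes, so only its change between arrays can be read. miR-206 minus miR-1 averaged -3.74 ± 0.40 on day 0, -3.01 ± 0.43 on day 1, -1.22 ± 1.40 on day 4, -1.31 ± 0.06 on day 7 and -2.55 ± 0.91 on day 14 (SD, n = 3 each). It differed over the 5 groups in a permutation test (p = 0.0119, adjusted over the 4 ratios 0.0238). All 3 arrays of day 4, of day 7 and of day 14 lay above all 3 day 0 arrays, with differences of 2.52, 2.43 and 1.19 on the log2 scale. miR-206 was detected on 2 of the 3 day 0 arrays, so these sizes rest in part on a signal below detection. The day 4 difference was 2.33 without that array, day 0 replicate 2, and 3.18 with the software's total signal. In an exact test of 3 arrays against 3, each of these had p = 0.100, the smallest that design allows. In a pair of arrays with like miR-1, day 7 replicate 2 had an intensity of 207 for miR-1 and 83.8 for miR-206. Day 0 replicate 2 had 211 for miR-1 and 12.0 for miR-206, which was not detected there. This pair is an extreme one: the day 0 difference was lowest on replicate 2 (-4.13), with -3.76 and -3.33 on replicates 1 and 3.

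miR-133b minus miR-1 moved less. It averaged -0.34 ± 0.06 on day 0, 0.15 ± 0.11 on day 1, 0.50 ± 0.34 on day 4, 0.27 ± 0.20 on day 7 and -0.07 ± 0.33 on day 14 (SD, n = 3 each), and differed over the 5 groups (permutation p = 0.00980, adjusted over the 4 ratios 0.0238). All day 1, day 4 and day 7 arrays lay above all day 0 arrays. miR-133a and miR-499 minus miR-1 did not pass, with permutation p of 0.0530 and 0.185 (adjusted 0.0707 and 0.185).

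The call for miR-206 was lost in 12 of 29 alternatives and that for miR-133b in 10 of 30, most of them with a single array left out. Another percentile, no scaling, no filter, another spread model or a block leaves this difference as it was. Those alternatives could not lose the call, so the counts make it look more stable than it was. The adjusted permutation p reached 0.0902 at most, and the difference between day 4 and day 0 stayed between 1.84 and 3.28 for miR-206 and between 0.54 and 1.00 for miR-133b.

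**Figure D5:**
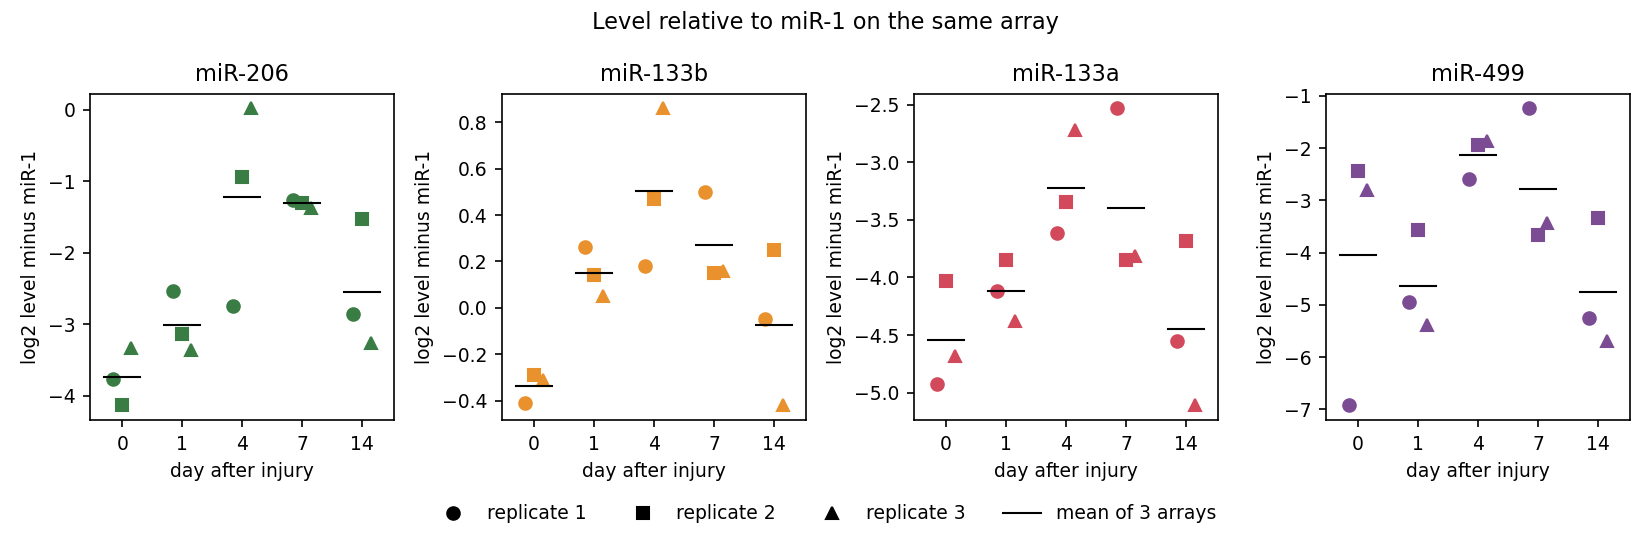
Log2 level of miR-206, miR-133b, miR-133a and miR-499 minus that of miR-1 on the same array, by day after injury, with a line at the mean of the 3 arrays. miR-206 rises relative to miR-1 to means of -1.22 and -1.31 on days 4 and 7, with -3.74 on day 0, and its 3 day 7 arrays coincide.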

How the data were processed

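Total RNA was labelled with cyanine 3 and hybridised to 15 1-colour Agilent arrays, per the labels' protocols. The deposited files hold spot intensity values that the authors made with Agilent Feature Extraction 10.7.3.1, background-subtracted per spot and not scaled between arrays, per the file headers. The deposited series table, used as an alternative source, looks log2-scaled from its values; how the authors scaled it is not given in the sources used here.

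Control spots and outlier spots were dropped. For each miRNA the processed intensity was the mean over its probes, each the mean of its spots. Arrays were scaled by their own 75th percentile (533 to 916), computed from the 164 miRNAs with a detection on every array. A floor of 0.00362 (-8.11 on the log2 scale) replaced lower values before log2 was taken. Detection is the software's call. limma 3.58.1 in R 4.3.3 was run on the 231 miRNAs that some group detected on each of its 3 arrays, in a single model of the 5 group means (10 residual and 3.28 prior degrees of freedom), two-sided, with Benjamini-Hochberg adjustment within each comparison and a threshold of 0.05. Errors beside log2 changes are standard errors. A member was not counted as called where neither group had a detection. For an "at least" fold, each array of the undetected group took its lowest detected signal, or the member's own signal if higher. The model was tested on simulated data. Correlations and relative levels used permutation tests with 100000 resamples, in Python 3.11.15 with numpy 2.4.6 and scipy 1.17.1.

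The members, the marker lists and the rule for named miRNAs were chosen with earlier results of these data known. The rule takes all 6 members, the 5 other miRNAs most like miR-133a in level and the 5 most like it in deviation from group means, and at most 2 of each marker list; miR-144 was named after its value was seen. Alternatives changed the spot summary, background correction, scaling, source table, filter, spread model, blocks and the arrays used. On arrays, depth means signal over background; the number of arrays, 3 per group, limits the precision. Sequences and positions are those of RefSeq, build GRCr8.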

Additional observations from a re-analysis of the deposited data

How the results depend on the processing

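In 26 of 30 alternatives 4 members were in the top 5% of residual SD. These 26 include robust eBayes, array weights and the slide and replicate blocks. Those settings do not enter the residual SD as computed here, so they could not change the count. The count was 3 without day 0 replicate 1, without that array and day 14 replicate 3 together, in the deposited table (miR-133a left the top 5% in these) and with only miRNAs detected on all 15 arrays, where miR-206 was not tested. Of 592 values of single members against day 0 under the alternatives, 497 kept their direction and their side of the threshold, 22 lost a call, 33 gained it and 40 changed sign. All 40 concern miR-1, miR-133a, miR-133b and miR-206, and the cause was not tested.

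Counts of called members were 1, 2, 2 and 2 on days 1, 4, 7 and 14 against day 0, 4 for day 4 against day 1, 0 for day 7 against day 4, 1 for day 14 against day 7 and 4 for the F test. These counts include the near-background miR-1* on day 14 against day 0 and for day 4 against day 1. They also include it for day 14 against day 7 and for the F test. On day 1 the count was 0 with the software's total signal, with normexp, in the deposited table, with the percentile over all miRNAs or over those detected on 14 arrays, and with only miRNAs detected on all 15 arrays (where miR-499 was not tested), and 4 with array weights. On day 4 it was 1 with the total signal and in the deposited table and 4 without scaling and with slide as a random block. On day 7 it was 1 in the deposited table, without a filter and with array weights, and 4 with normexp. On day 14 it was 1 with the total signal, the percentile over all miRNAs, quantile normalisation, no scaling and the deposited table, and 0 with only miRNAs detected on all 15 arrays. For day 4 against day 1 it was 2 with the total signal and normexp and 1 without a filter. For day 7 against day 4 it was 1 with array weights. For day 14 against day 7 it was 0 with the total signal, normexp, the deposited table, no filter, only miRNAs detected on all 15 arrays, and within the slide. The F test called 2 with the total signal, the percentile over all miRNAs, quantile normalisation, the deposited table, no filter and robust eBayes. Without day 0 replicate 1 and day 14 replicate 3 together, the counts were 4, 1 and 1 on days 1, 4 and 7 and 0 for day 14 against day 7. Without the 2 farthest arrays, 3 of 10 correlations passed in place of 6.

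With 1 array left out in turn, the counts ran from 0 to 4 on day 1, 1 to 4 on days 4 and 7, 1 to 3 on day 14, 1 to 5 for day 4 against day 1, 0 to 4 for day 14 against day 7 and 2 to 5 for the F test. The highest counts on day 1 came without day 0 replicate 1, and on days 4 and 7 without day 0 replicate 2 or 3. The lowest came without day 0 replicate 3, day 1 replicate 3 or day 14 replicate 3 on day 1, without day 0 replicate 1 on day 4, and without day 0 replicate 1 or day 7 replicate 1 on day 7. miR-1 ranged from -0.94 to 1.42 on day 1 and from -1.76 to 0.62 on day 14. miR-133a ranged from -0.26 to 1.65 and from -1.40 to 0.52 on the same days, and miR-133b from -0.44 to 1.87 and from -1.48 to 0.84. miR-206 ranged from -0.41 to 2.14 on day 1, -1.58 to 0.99 on day 4, -1.37 to 1.19 on day 7 and -0.76 to 1.80 on day 14.

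Of the other changes of sign, those of miR-1 on day 1 were 0.17 with the percentile over all miRNAs, 0.21 over those detected on 14 arrays, 0.11 without the members in it, 0.15 with quantile normalisation, 0.24 in the deposited table, 1.69 with array weights and 1.66 without both arrays, set against -0.0005. With array weights, miR-1, miR-133a and miR-133b were at 0.73, 0.26 and 0.82 on day 14 and miR-206 at 1.14 and 1.32 on days 4 and 7. Without both arrays these values were 0.47, 0.70, 0.87, 1.17 and 1.38. miR-206 was at 0.24 and 0.44 on days 4 and 7 with the total signal, 0.66 and 1.04 in the deposited table, and 0.14 on day 7 with the percentile over all miRNAs. With normexp, miR-133a was at -0.04 on day 1 and miR-206 at -0.30 on day 14.

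Replicate numbers did not pair the arrays: 30 pairs with the same number in different groups had r of -0.782 to 0.594 between their deviations (median -0.0516), and 4 of 15 arrays were most like their own number. With the replicate block, 4 members were called in the F test, as without it. Normexp was run on the median spot signal, since a mean signal was not used here. Dim signal limits miR-1*, miR-133a and miR-499, whose intensities were 4.49 to 10.6, 7.52 to 182 and 16.3 to 51.5, and 3 arrays per group limit all comparisons.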
